A study of Rattus norvegicus with 98 samples.

Results

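The nuclear genes of oxidative phosphorylation were followed in the nasal epithelium of rats that inhaled formaldehyde, a reactive gas that irritates the upper airway, or received it as a liquid in the nose. The genes were taken by symbol from the annotation of the array: those starting with Ndufa, Ndufb, Ndufc, Ndufs or Ndufv, Sdh, Uqcr, Cox4 to Cox8 or Atp5, without Ndufaf. This gave 84 genes among the 14217 genes with a probe set of their own. Each gene was read from 1 probe set, the one with the highest mean over the 98 arrays, and 9 of the 84 had more than 1 to choose from.

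All animals were male F344/NCrl rats 8 weeks old, and each gave 1 array of RNA from cells that proteases released from the lateral meatus and nasoturbinate at level II of the nose, described as mostly transitional with some respiratory epithelium. In the second array set, 4 rats breathed 15 ppm formaldehyde, killed at 6 h, against 4 rats in air, and 4 rats were instilled with 400 mM formaldehyde, 40 µl per nostril, against 4 rats given distilled water, all killed 6 h later. In the first array set, rats breathed air, 0.7, 2 or 6 ppm in whole-body exposures of 6 h a day, 5 days a week, and were killed at 6 h, 24 h, 5, 8 or 19 days after the start. These 20 groups held 4 rats each, except 5 at 2 ppm for 5 days and 5 in air for 8 days. The 2 sets were told apart by the project code in the sample names. For the 8-day rats at 0.7 ppm, the treatment field gives 0.07 ppm and the other labels 0.7.

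Oxidative phosphorylation takes place on the inner mitochondrial membrane. Complexes I and II pass electrons from NADH and succinate to ubiquinone, complex III passes them on to cytochrome c and complex IV to oxygen. Complexes I, III and IV pump protons, and complex V, the ATP synthase, uses the gradient to make ATP. The subunits come from 2 genomes, and the genes here are the nuclear part, whose products are imported. In the airway the ciliated cells, whose beat consumes ATP, are rich in mitochondria. Subunit roles given below are known mostly from cattle, human and mouse enzymes.

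The 84 genes held 34 of complex I, 8 of complex II, 7 of complex III, 19 of complex IV and 16 of complex V. Of these, 17 were classed as core subunits that carry electrons or form the catalytic and rotary parts, 53 as accessory subunits and 7 as tissue-restricted isoforms. The rest were the 4 complex II assembly factors Sdhaf1 to Sdhaf4, the ATPase inhibitor Atp5if1, the supercomplex factor Cox7a2l and the pseudogene Cox6c-ps1. A further 7 probe sets matched the names but were shared with a second gene, so Cox7a2, Ndufa10, Ndufs5, Uqcrb, Atp5mc1 and Atp5mc2 have no level of their own, and Cox5a was read from a probe set that averaged 7.52.

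Start regions of 76 of the 84 genes were found in a RefSeq promoter table of build GRCr8, each 250 bases before to 50 bases after the gene start. The letters AAGATGGCG, bound by YY1, stood in 10 of the 76, or 13.2%, against 1.73% of the 33469 windows of the table, counting both strands. All 10 lay on the strand of the gene, and 8 began after the gene start. They hold ATG, so such a match can coincide with a start codon, whose place was not mapped here. They are shown because, of the 5 motifs searched, this one stood in the most of the 76 windows, with the match in capitals and up to 10 bases on either side, 5′ to 3′.
Atp5mf: acaggacttcAAGATGGCGtctat
Atp5pf: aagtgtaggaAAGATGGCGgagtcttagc
Ndufa2: tttgctagcaAAGATGGCGgccgcaagcc
Ndufa6: cttccttagcAAGATGGCGgccgcggcca
Ndufa9: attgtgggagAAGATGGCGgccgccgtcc
Ndufb8: ggagaaggtgAAGATGGCGgcgtcccggg
Ndufs4: tgcccacaggAAGATGGCGgcggtctcaa
Ndufs6: ggtcgtcggcAAGATGGCGgcggcgctga
Ndufs7: ggccgaggccAAGATGGCGgcgctggcgg
Uqcrc1: cggaagttagAAGATGGCGgcgtccgcag
The 10 include Ndufa2, Ndufa6 and Ndufb8, which were higher after instillation, as were 13.1% of the 84 genes. They also include Ndufs7, which was lower at 6 ppm, as were 3.57% of the 84. On the second array set alone Ndufa2, Ndufa6 and Ndufb8 no longer passed the test. A link between the motif and these differences was not tested. In GRCr8 the Ndufs7 stretch lies at chr7:10110476-10110504 on the minus strand and the Ndufb8 stretch at chr1:253362897-253362925 on the minus strand.

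The other 4 motifs were searched on both strands too. The NRF1 palindrome stood in 3.95% of the 76 windows against 0.852% of all, CCGGAAGTG (ETS factors) in 3.95% against 1.89%, and TCAAGGTCA (estrogen-related receptors) in 2.63% against 0.433%. GGGGCGGGG (SP1) stood in 5.26% against 9.73%. A match is a description of the letters only.

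The 250 bases before the start are given for Ndufb5 and Atp5if1, higher after both high-dose exposures, and for Ndufs3, lower at 6 ppm, with any of the 5 motifs in capitals. They lie at chr2:117447355-117447604 on the plus strand for Ndufb5, at chr5:150026678-150026927 on the minus strand for Atp5if1 and at chr3:97339655-97339904 on the minus strand for Ndufs3.
Ndufb5: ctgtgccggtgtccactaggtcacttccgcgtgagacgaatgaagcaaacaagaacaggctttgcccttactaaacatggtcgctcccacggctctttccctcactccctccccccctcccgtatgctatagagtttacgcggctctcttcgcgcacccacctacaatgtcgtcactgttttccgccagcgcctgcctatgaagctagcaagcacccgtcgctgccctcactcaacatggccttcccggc
Atp5if1: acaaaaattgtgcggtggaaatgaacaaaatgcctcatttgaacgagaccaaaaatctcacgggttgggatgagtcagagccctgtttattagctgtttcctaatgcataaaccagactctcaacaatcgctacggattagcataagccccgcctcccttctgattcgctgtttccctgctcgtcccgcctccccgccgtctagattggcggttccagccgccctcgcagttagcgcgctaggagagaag
Ndufs3: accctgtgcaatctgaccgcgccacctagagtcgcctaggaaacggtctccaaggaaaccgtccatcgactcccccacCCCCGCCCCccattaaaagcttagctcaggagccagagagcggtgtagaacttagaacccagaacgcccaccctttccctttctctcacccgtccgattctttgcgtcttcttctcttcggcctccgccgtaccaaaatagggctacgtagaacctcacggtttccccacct
The capitals in Ndufs3 mark the SP1 letters read on the other strand, and the first 2 windows hold none of the 5 motifs.

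Values are log2 signals. Most of the genes were read brightly: 70 of the 84 lay above 9.28, the 90th percentile of all 31042 probe sets, and 49 averaged 11 or more. The brightest was Cox4i1 at 12.62 and the dimmest Cox7b2 at 3.62, below the lower quartile of 4.39. Probe sets differ in affinity, so these levels do not rank the genes by amount. Animals of a group differed little: the median SD within groups was 0.107 over the 84 genes against 0.168 over all genes, and 0.0967 against 0.124 for genes at 11 or more. Over the 98 arrays Ndufb4 had the smallest SD (0.083) and Ndufa4l2 the largest (0.53).

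The genes also varied together from animal to animal. After subtracting group means, the mean correlation between pairs of the 84 genes over the 98 arrays was 0.27, against 0.0064 between pairs of all genes. For genes averaging 10 or more it was 0.34 between 66 of the 84 and 0.030 between all such genes. Within complexes it was 0.39 for I, 0.32 for II, 0.27 for III, 0.082 for IV and 0.28 for V. Complex IV here holds all 7 tissue-restricted isoforms and the pseudogene. The mitochondrial ribosome reached 0.30 and the cytosolic ribosome 0.32. These are descriptions across arrays that share RNA quality and processing.

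The cell material was mixed by markers. In the air animals olfactory markers such as Omp and Gnal averaged 9.88 to 12.77, although that tissue was to be discarded. Ciliated markers such as Foxj1 averaged 8.32 to 11.55. Outside the epithelium, markers of stroma and vessels averaged 6.41 to 13.26 and erythroid markers 6.22 to 14.47. Below the lower quartile lay 1 of 8 basal and squamous and 2 of 10 skeletal muscle markers. A level above that quartile does not by itself show that a cell type was present. In such a mixture, fewer cells of a type and less RNA per cell cannot be told apart. RNA integrity numbers, on a scale where higher is more intact, were labelled for 85 arrays with a median of 8.2.

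**Figure D1:**
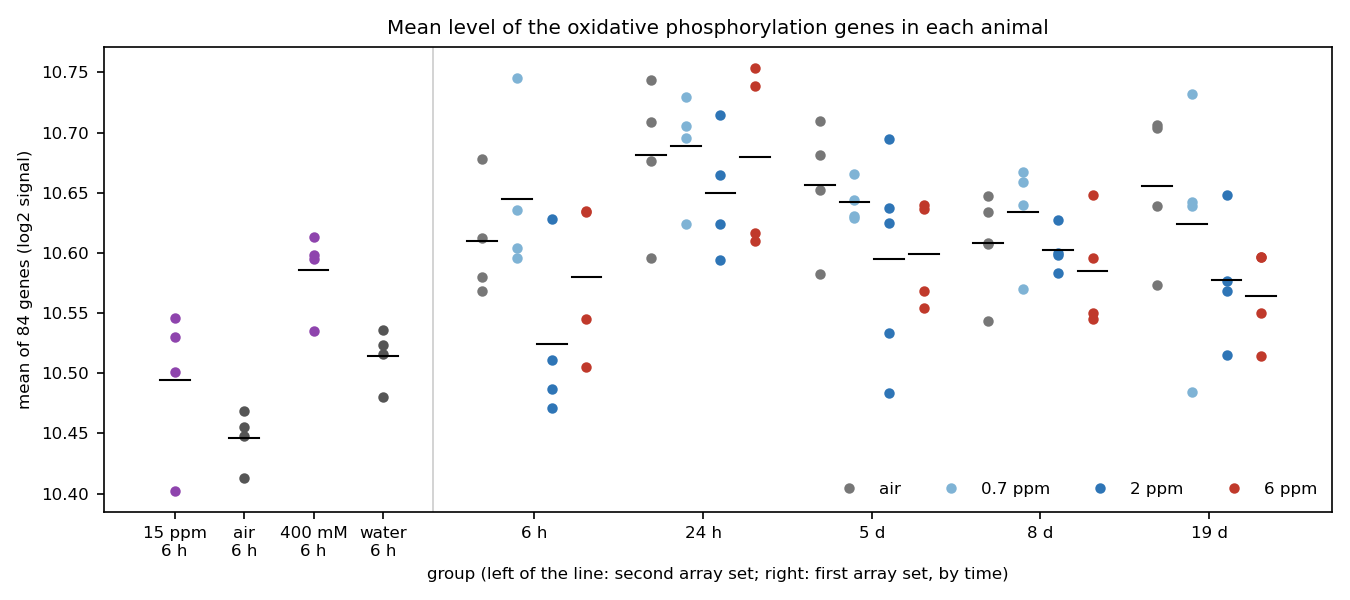
Mean log2 signal of the 84 genes in each animal (points) and group mean (lines), with the second array set left of the line and the first array set by time to its right. The 4 air animals of the second set lie at 10.41 to 10.47, below the 4 air animals of the first set at 6 h, at 10.57 to 10.68.

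Breathing 15 ppm for 6 h was compared with breathing air in the same array set. A gene was called when its adjusted p fell below 0.05. Of the 84 genes 5 rose and 0 fell, all by 1.16-fold to 1.24-fold. That is 5.95% of the genes, against 8.49% of all probe sets called, 4.32% upward and 4.17% downward. The genes that rose were 3 small parts of complex V and 2 accessory subunits of complex I. The median difference over the 84 genes was 0.058 against -0.017 over all genes.

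Atp5mk, a small membrane subunit linked to ATP synthase dimers, had 12.23, 12.27, 12.40 and 12.45 in 15 ppm rats, against 11.9954, 12.01, 12.03 and 12.06 in air rats. The groups did not overlap, with a log2 difference of 0.31 ± 0.077 (SE, limma adjusted p = 0.00332). Atp5if1 binds ATP synthase and blocks its reverse, ATP-splitting reaction. It had 11.09, 11.22, 11.23 and 11.24 in 15 ppm rats, against 10.87, 10.89, 10.96 and 11.06 in air rats. Every 15 ppm rat lay above every air rat, with a log2 difference of 0.25 ± 0.078 (SE, limma adjusted p = 0.0301). Atp5mpl, a further small membrane subunit of complex V, had 11.20, 11.21, 11.25 and 11.32 in 15 ppm rats, against 10.86, 10.997, 11.04 and 11.09 in air rats. Again the groups did not overlap, with a log2 difference of 0.25 ± 0.073 (SE, limma adjusted p = 0.0176).

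Ndufb2 and Ndufb5 are accessory subunits of the membrane arm of complex I. Ndufb2 had 11.11, 11.17, 11.21 and 11.25 in 15 ppm rats, against 10.88, 10.88, 10.93 and 10.96 in air rats, with a log2 difference of 0.27 ± 0.076 (SE, limma adjusted p = 0.0129). Ndufb5 had 11.18, 11.19, 11.30 and 11.33 in 15 ppm rats, against 10.9998, 11.04, 11.05 and 11.06 in air rats, with a log2 difference of 0.21 ± 0.07 (SE, limma adjusted p = 0.0426). Neither overlapped between the groups. In all, 13 genes lay wholly above the air rats and 1 wholly below, against 8.02% and 8.31% of all probe sets. Of the 53 accessory subunits 43 had positive differences with a median of 0.091, and of the 17 core subunits 4 did, with a median of -0.085. None of the 17 core subunits was called. The lowest difference of the 84, -0.25, was that of Ndufa4l2 (adjusted p = 0.783).

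The 15 ppm result depended on its controls. Set against the 6 h air rats of the first array set, 1 of the 84 genes was higher and 19 were lower. That comparison called 4763 of all 31042 probe sets in either direction, against 2636 with air of the same array set. None of the 5 genes was called in it, and Ndufb5 had a difference of -0.040. In that comparison exposure and array set cannot be told apart. The air rats of the second set were themselves lower than those of the first, by a median of -0.17 over the 84 genes. Only Atp5mk and Ndufb2 were called whichever of the 8 animals was left out: the count was 2 without 15 ppm animal 342 or air animal 325, and 3 without 15 ppm animal 338 or air animal 321 or 322. Neutrophil markers moved with the exposure: 4 of 6 rose, and their mean level was 7.11 to 7.30 in 15 ppm rats, against 5.80 to 6.20 in air rats. RNA integrity was 7.7 to 8.2 in 15 ppm rats, against 7.3 to 7.8 in air rats. Their part in the result was not tested.

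Around the complexes, other mitochondrial genes were also called at 15 ppm. Of 24 import genes 7 rose and none fell, led by the small intermembrane chaperones Timm9 (0.66) and Timm8a1 (0.87). The chaperone pair Hspe1 (0.54) and Hspd1 (0.48) rose, the 2 called of 11 chaperones and proteases. Of 16 regulators of mitochondrial biogenesis, the coactivator Pprc1 (1.12) and the polymerase subunit Polg2 (0.56) rose, while Ppargc1a, the best known coactivator of the programme, had -0.14 (adjusted p = 0.704), Tfam 0.0073 (0.977) and Nrf1 -0.057 (0.879). Of 41 assembly factors 4 rose, with Ndufaf4 (0.52) first, and 2 fell, and Coq10b, a ubiquinone-binding protein, rose by 1.17. In the citrate cycle 3 of 14 fell, all subunits of succinyl-CoA ligase: Suclg2 (-0.40), Suclg1 (-0.26) and Sucla2 (-0.22). Values in brackets after a gene are log2 differences, except the adjusted p beside Tfam and Nrf1.

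Instilled formaldehyde at 400 mM was compared with instilled water. Of the 84 genes 11 rose and 3 fell, by at most 1.31-fold, which is 16.7% of the genes against 22.2% of all probe sets, 9.83% upward and 12.4% downward. In all 11 genes lay wholly above the water rats and 1 wholly below, against 8.94% and 9.76% of all probe sets. Of the 11 rises 7 were accessory subunits of complexes I, IV and V, and the others were the core subunit Ndufv1, the inhibitor Atp5if1, the supercomplex factor Cox7a2l and the pseudogene Cox6c-ps1. The falls were Sdha, Sdhaf3 and Atp5f1c. The median difference was 0.074 against -0.0024 over all genes. With cyclic loess normalization, 18 rose and 1 fell.

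In complex V, Atp5mg, subunit g of the membrane part, had 12.01, 12.04, 12.26 and 12.38 in formaldehyde rats, against 11.72, 11.73, 11.80 and 11.90 in water rats, with a log2 difference of 0.39 ± 0.089 (SE, limma adjusted p = 0.000557). Atp5if1 had 11.27, 11.32, 11.34 and 11.48 in formaldehyde rats, against 10.99, 11.02, 11.10 and 11.17 in water rats, with a log2 difference of 0.28 ± 0.078 (SE, limma adjusted p = 0.0044). Atp5f1c, the gamma subunit that turns inside the catalytic head, had 11.74, 11.89, 11.98 and 12.01 in formaldehyde rats, against 12.06, 12.10, 12.17 and 12.24 in water rats, with a log2 difference of -0.24 ± 0.065 (SE, limma adjusted p = 0.004). For these 3 genes no formaldehyde rat lay within the range of the water rats.

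In complex I, 6 genes rose. Ndufa12, an accessory subunit of the peripheral arm, had 11.55, 11.56, 11.61 and 11.77 in formaldehyde rats, against 11.27, 11.38, 11.38 and 11.48 in water rats, with a log2 difference of 0.24 ± 0.069 (SE, limma adjusted p = 0.00608). Ndufb5 had 11.20, 11.29, 11.32 and 11.49 in formaldehyde rats, against 11.0049, 11.10, 11.13 and 11.13 in water rats, with a log2 difference of 0.24 ± 0.07 (SE, limma adjusted p = 0.00877). Neither overlapped. Ndufb8 of the membrane arm had 8.68, 8.70, 8.71 and 8.74 in formaldehyde rats, against 8.22, 8.28, 8.51 and 8.57 in water rats, with a log2 difference of 0.31 ± 0.12 (SE, limma adjusted p = 0.0475). The others were Ndufa2 (0.22), Ndufa6 (0.21) and the NADH-binding core subunit Ndufv1 (0.19), for which the adjusted p was 0.0456, 0.0193 and 0.027.

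In complex IV, Cox7b, a small accessory subunit, had 12.55, 12.66, 12.68 and 12.84 in formaldehyde rats, against 12.38, 12.40, 12.44 and 12.51 in water rats, with a log2 difference of 0.25 ± 0.071 (SE, limma adjusted p = 0.00568). Cox7a2l, which tethers complexes III and IV into supercomplexes, had 11.11, 11.43, 11.68 and 11.69 in formaldehyde rats, against 11.08, 11.13, 11.22 and 11.23 in water rats, with a log2 difference of 0.31 ± 0.074 (SE, limma adjusted p = 0.000729). One formaldehyde rat lay within the water range for Cox7a2l. The dim Cox6c-ps1 had 5.63, 5.76, 5.81 and 5.94 in formaldehyde rats, against 5.25, 5.47, 5.48 and 5.56 in water rats, with a log2 difference of 0.35 ± 0.10 (SE, limma adjusted p = 0.00652). Its sequence may share signal with the parent gene Cox6c, so it is uncertain.

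In complex II, Sdha, the flavoprotein that oxidizes succinate, had 10.41, 10.45, 10.51 and 10.83 in formaldehyde rats, against 10.66, 10.72, 10.87 and 10.88 in water rats, with a log2 difference of -0.23 ± 0.081 (SE, limma adjusted p = 0.0282). Sdhaf3, a factor for maturing the iron-sulfur subunit, had 6.85, 6.99, 7.21 and 7.31 in formaldehyde rats, against 7.27, 7.41, 7.41 and 7.60 in water rats, with a log2 difference of -0.33 ± 0.12 (SE, limma adjusted p = 0.0284). Both groups overlapped. Neither was called after cyclic loess normalization. All 7 genes of complex III had positive differences, median 0.16, and none was called.

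The 6 genes Atp5if1, Atp5mg, Cox6c-ps1, Cox7a2l, Cox7b and Ndufa12 were called whichever of the 8 animals was left out, and the count was 9 without formaldehyde animal 374 or water animal 352. A fit to the second array set alone called 6 genes. Cell markers also differed: all 6 neutrophil markers rose, with mean levels of 8.14 to 9.18 in formaldehyde rats, against 6.20 to 6.67 in water rats, and 2 of 6 ciliated markers fell, with mean levels of 9.08 to 9.27 in formaldehyde rats, against 9.55 to 9.86 in water rats. RNA integrity was 8.3 to 8.4 in formaldehyde rats, against 7.5 to 8.3 in water rats. Their part in the result was not tested.

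**Figure D2:**
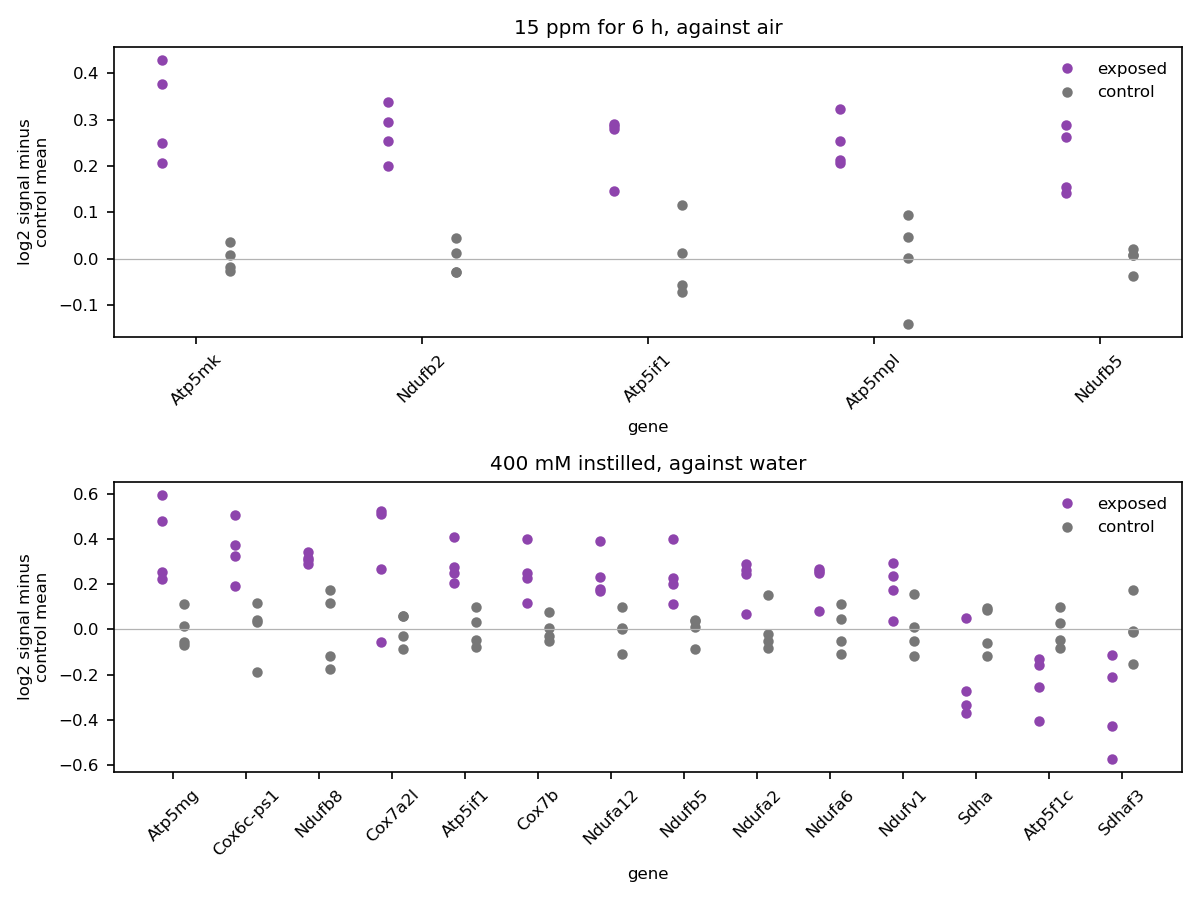
Log2 signal minus the control mean for each gene called after 15 ppm (top) and after instillation (bottom), with a point for each exposed (left) and control (right) animal. The animals do not overlap for the 5 genes at 15 ppm and for 8 of the 14 after instillation, whereas Cox7a2l and Sdha each have 1 formaldehyde rat within the water range.

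Around the complexes, instillation raised Hspe1 by 0.96 and Hspd1 by 0.83, and Coq10b by 1.56. Among the regulators Polg2 rose by 1.13, the mitochondrial helicase Twnk by 0.59, Pprc1 by 0.86 and the mitochondrial transcription factor Tfam by 0.28, while Ppargc1a had a difference of -0.44 (adjusted p = 0.0297) and Nrf1 of -0.25 (adjusted p = 0.194). In the citrate cycle Idh2 (-0.51) and Ogdh (-0.49) were lower, and Idh3g (0.30) and Mdh2 (0.16) were higher. Of 50 cytosolic ribosomal genes 18 rose and 0 fell, and of 73 mitochondrial ribosomal genes 11 rose and 7 fell. These are log2 differences.

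Atp5if1 and Ndufb5 were called after both routes, which is 40% of the 5 genes called at 15 ppm and 14.3% of the 14 called after instillation. Of all probe sets 8.49% were called at 15 ppm and 22.2% after instillation. The overlap was not counted over all probe sets, so these shares have no background beside them. At 15 ppm Atp5if1 lost its call with the mean over its 3 probe sets (0.19), with the RNA integrity number in the fit (0.22), on the second array set alone (0.25) and against air of the first array set (0.14). Ndufb5 at 15 ppm lost its call on the second array set alone (0.21) and against air of the first array set (-0.040). Of the 8 fits without 1 animal, Ndufb5 was lost in 7 and Atp5if1 in 6. A test of the difference between the 2 effects called none of the 84 genes, against 0.879% of all probe sets. At an unadjusted p below 0.05, 3 were higher and 3 lower, or 7.14% of the genes against 9.76% of all probe sets. The 95% interval of that difference reached a median of 0.22 to either side, so differences of that size could have been missed. Without formaldehyde animal 372 Cox7a2l passed this test, with a difference of 0.38, and without air animal 325 Uqcrfs1 did, with 0.47.

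Instilled water itself was compared with air. None of the 84 genes was called, against 0.0129% of all probe sets, and 15 were higher and 0 lower at an unadjusted p below 0.05, which 10.4% of all probe sets met in either direction. The median difference was 0.064, and 10 genes lay wholly above the air rats against 5.3% of all probe sets. Set against air in place of water, instilled formaldehyde had 31 genes higher and 2 lower, with a median of 0.15. That comparison called 9331 of all 31042 probe sets in either direction, against 6892 with water.

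At 0.7, 2 and 6 ppm none of the 84 genes was called at any of the 5 times. In these comparisons limma called few probe sets of any kind. At 6 ppm it called 0.245% at 6 h, 0.00322% at 24 h, 0.119% at 5 days, 0.029% at 8 days and 0.412% at 19 days. At 2 ppm it called 0.00322% at 6 h and 0.0741% at 5 days, at 0.7 ppm 0.00644% at 5 days, and 0 at the other times of both. At an unadjusted p below 0.05 there were 9 results higher and 67 lower among 1260 tests. By comparison, 0 to 17.9% of the genes had such a p in either direction, against 1.32% to 12.6% of all probe sets. The largest counts of lower results were 15 at 2 ppm for 19 days, 14 at 2 ppm for 6 h and 12 at 6 ppm for 19 days, where 8.64%, 5.61% and 11.8% of all probe sets had such a p in either direction. At 6 ppm for 19 days 79 of 84 genes had negative differences, median -0.091, and 9 lay wholly below the air rats, against 4.62% of all probe sets. With cyclic loess normalization the median was -0.049 there, -0.030 at 2 ppm for 6 h, against -0.084 as deposited, and -0.041 at 2 ppm for 19 days, against -0.083 as deposited. The 3 concentrations share the air rats of each time, so they are not independent.

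**Figure D3:**
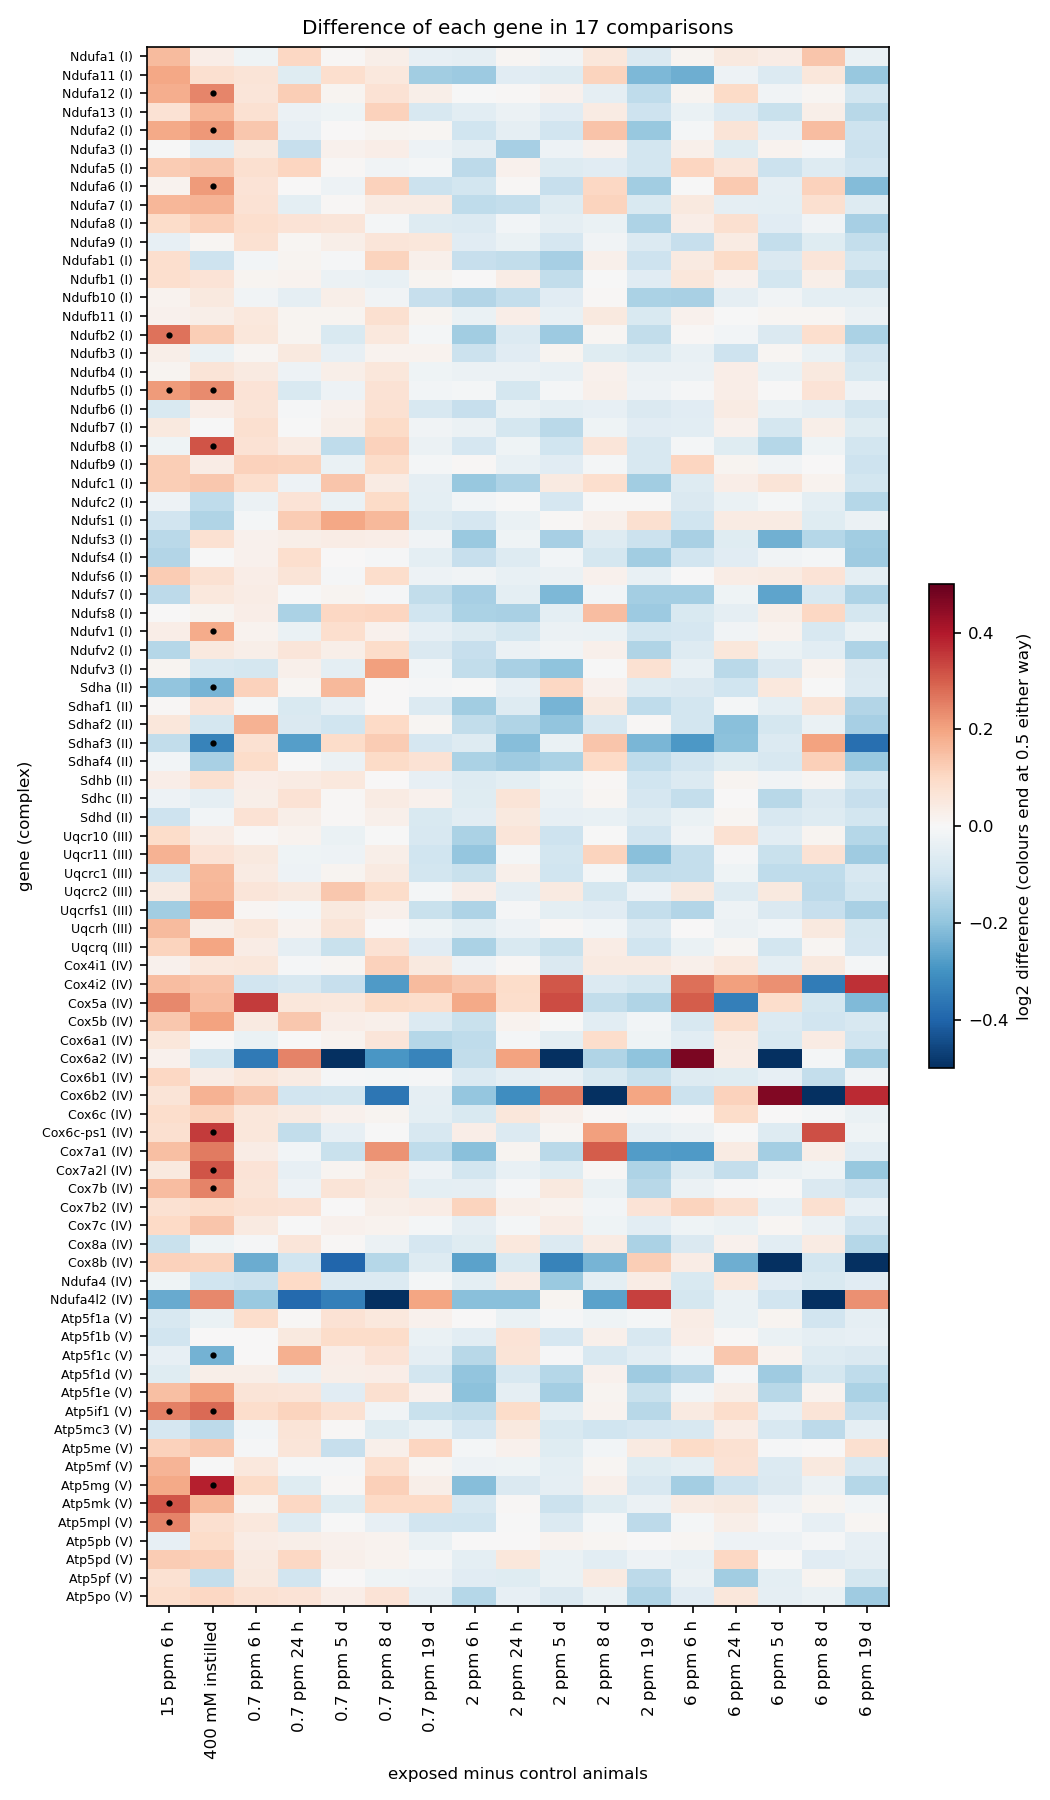
Log2 difference of each of the 84 genes, ordered by complex, in 17 comparisons of exposed with control animals, with black dots where the gene was called. Dots appear in the 15 ppm and instilled columns, 5 and 14 of them, and in none of the 15 columns at 0.7 to 6 ppm.

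Pooled over the 5 times, 6 ppm lowered 3 of the 84 genes and raised 0, or 3.57% against 6.37% of all probe sets, 2.82% upward and 3.54% downward. They were Ndufs3 and Ndufs7, core subunits of the peripheral arm of complex I, and Sdhaf2, which helps attach the flavin to Sdha. Ndufs3 ranged over 9.81 to 10.39 with a median of 10.25 in 6 ppm rats, against 10.07 to 10.55 with a median of 10.40 in air rats. The ranges overlapped, with a log2 difference of -0.16 ± 0.043 (SE, limma adjusted p = 0.0166) between 20 and 21 rats. It was negative at all 5 times, from -0.24 at 5 days to -0.062 at 24 h. The pooled difference is the mean over these times, so their signs are not separate support.

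Ndufs7, which carries the iron-sulfur cluster that hands electrons to ubiquinone, ranged over 9.95 to 10.83 with a median of 10.51 in 6 ppm rats, against 10.39 to 10.91 with a median of 10.64 in air rats, with a log2 difference of -0.14 ± 0.037 (SE, limma adjusted p = 0.0151). Sdhaf2 ranged over 8.43 to 8.99 with a median of 8.77 in 6 ppm rats, against 8.58 to 9.02 with a median of 8.85 in air rats, with a log2 difference of -0.12 ± 0.038 (SE, limma adjusted p = 0.0482). Both were negative at all 5 times, which again make up the pooled difference. Ndufs3 and Ndufs7 were called in each of the 41 fits without 1 animal, and Sdhaf2 was lost in 24 of them. Sdhaf2 was also not called with cyclic loess, with a trended robust prior, on the first array set alone or with the mean over its 2 probe sets, where its difference was -0.045. On the arrays with an RNA integrity number none of the 3 was called, where Ndufs3 had -0.12 and Ndufs7 had -0.10 with that number in the fit, and -0.12 and -0.11 without it. The count was 6 without 6 ppm animal 283 or 308. The lowest Ndufs3 and Ndufs7 values were both those of 6 ppm animal 286 at 6 h, which has no RNA integrity number and the highest skeletal muscle marker mean of all rats. Muscle markers had a median difference of -0.35 and ciliated markers of -0.19 at 6 ppm, none called, and their part in the result was not tested.

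At 2 ppm pooled over times no gene was called, against 0.361% of all probe sets, yet 77 of 84 differences were negative, median -0.054, and 26 were lower and 0 higher at an unadjusted p below 0.05, against 10.7% of all probe sets in either direction. At 0.7 ppm none was called and the median was 0.015. At that level 2 were higher and 1 lower, or 3.57% of the genes against 2.84% of all probe sets. The median of 6 ppm was -0.038, or -0.019 with cyclic loess normalization, with 18 lower and 0 higher at that level, or 21.4% of the genes against 22.6% of all probe sets. Effects of 6 ppm were called as different between times for 0 of the 84 genes in a limma F-test, in which 4 had an unadjusted p below 0.05 and 0.0129% of all probe sets were called. The lowest pooled difference at 6 ppm was that of Cox8b (-0.32, adjusted p = 0.105) and the highest that of Cox4i2 (0.14, adjusted p = 0.307). Beside the complexes at 6 ppm, Ppargc1a rose by 0.26 (adjusted p = 0.0126), Tfam had -0.088 (adjusted p = 0.118) and Nrf1 had -0.096 (adjusted p = 0.355). Coq10b rose by 0.42, and 9 of 41 assembly factors and 9 of 73 mitochondrial ribosomal genes fell.

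The effect at 15 ppm minus the effect at 6 ppm for 6 h was called for none of the 84 genes, against 1.19% of all probe sets. At an unadjusted p below 0.05, 11 were higher, or 13.1% of the genes against 10.3% of all probe sets in either direction. Ndufa11, a membrane subunit of complex I, came nearest, with a log2 difference of 0.43 ± 0.13 (SE, limma adjusted p = 0.0627). It passed without 6 ppm animal 283 or 287 or without air animal 52.

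The largest counts of called genes were between times of the first array set. Each time was compared with 6 h over air and all 3 concentrations, 16 or 17 rats a time. At 24 h, 33 of the 84 genes were higher and 3 lower, or 42.9% against 21.7% of all probe sets, 12.7% upward and 8.96% downward. Complex I gave 18 of the 33 from its 34 genes. Mitochondrial ribosomal genes did likewise, with 32 of 73 higher and 4 lower, while of 50 cytosolic ribosomal genes 9 were higher and 5 lower. The labels do not give the days of collection or array handling, so these cannot be told apart from time.

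The 12 largest rises at 24 h were Cox4i2 (0.36), Ndufb7 (0.24), Uqcrfs1 (0.23), Ndufv3 (0.23), Ndufa7 (0.22), Cox6a1 (0.22), Ndufs7 (0.22), Atp5f1d (0.21), Uqcrc1 (0.21), Atp5pf (0.20), Cox7b (0.19) and Ndufb11 (0.18). Ndufb7 of the membrane arm of complex I ranged over 10.46 to 10.75 with a median of 10.56 at 24 h, against 10.13 to 10.50 with a median of 10.37 at 6 h, with a log2 difference of 0.24 ± 0.039 (SE, limma adjusted p = 2.02e-06). Uqcrfs1, the Rieske iron-sulfur protein of complex III, ranged over 11.49 to 11.81 with a median of 11.62 at 24 h, against 11.11 to 11.65 with a median of 11.42 at 6 h. The 3 genes that fell were the assembly factors Sdhaf4 (-0.19) and Sdhaf2 (-0.17) and the complex III hinge subunit Uqcrh (-0.074). Of the 33 rises 31 had the same sign in air and in each concentration, as did all 3 falls. The calls were made on the mean over these same groups, so the shared signs are not separate support. With the mean over its 2 probe sets Sdhaf2 had -0.075 at 24 h and was not called. Of the mitochondrial genome, COX1 (-0.15) and COX2 (-0.14) were lower at 24 h, the 2 subunits of complex IV from that genome with a named probe set.

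At 5 days, 17 genes were higher and 5 lower, or 26.2% against 22.5% of all probe sets, 11.8% upward and 10.7% downward. The rises were Cox4i2 (0.32), Ndufb7 (0.24), Ndufv3 (0.21), Ndufa11 (0.16), Atp5pf (0.16), Cox6a1 (0.15), Ndufs7 (0.15), Ndufb10 (0.14), Ndufs3 (0.14), Atp5f1b (0.14), Uqcrc1 (0.13), Atp5f1d (0.13), Cox7b (0.12), Ndufa3 (0.12), Ndufa5 (0.12), Cox5b (0.11) and Sdhb (0.10). The falls were Sdhaf4 (-0.20), Cox6c-ps1 (-0.14), Ndufc1 (-0.11), Uqcr10 (-0.10) and Ndufb5 (-0.093). With cyclic loess normalization 11 were higher and 6 lower.

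At 8 days, 8 genes were higher and 11 lower, or 22.6% against 19.3% of all probe sets, 11.1% upward and 8.21% downward. The rises were Cox5a (0.37), Ndufs1 (0.22), Ndufv3 (0.20), Sdha (0.15), Cox5b (0.13), Atp5f1c (0.13), Atp5f1b (0.12) and Cox6b1 (0.078). The falls were Ndufa2 (-0.20), Cox6c-ps1 (-0.18), Ndufb1 (-0.17), Ndufa6 (-0.16), Sdhaf4 (-0.15), Ndufb5 (-0.15), Uqcrq (-0.13), Uqcrh (-0.12), Ndufs6 (-0.11), Uqcr10 (-0.099) and Cox6c (-0.08). The falls held 5 accessory subunits of complex I and 3 of complex III, and no core subunit, while 4 core subunits rose.

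At 19 days, 20 genes were higher and 14 lower, or 40.5% against 20.7% of all probe sets, 10.8% upward and 9.93% downward. The 12 largest rises were Cox7b (0.28), Uqcrfs1 (0.24), Ndufb8 (0.22), Cox5b (0.22), Uqcrc2 (0.20), Ndufs1 (0.20), Atp5mg (0.17), Cox7c (0.17), Ndufb3 (0.17), Ndufs3 (0.16), Atp5po (0.15) and Ndufa8 (0.14). The 12 largest falls were Ndufab1 (-0.29), Sdhaf4 (-0.26), Ndufa1 (-0.22), Ndufc1 (-0.15), Cox6c-ps1 (-0.15), Atp5mpl (-0.15), Ndufa7 (-0.15), Ndufs8 (-0.13), Ndufs6 (-0.13), Ndufb2 (-0.13), Ndufa4 (-0.097) and Cox4i1 (-0.092). Ndufa1, an accessory subunit of complex I, ranged over 12.06 to 12.37 with a median of 12.24 at 19 days, against 12.38 to 12.51 with a median of 12.45 at 6 h, without overlap and with a log2 difference of -0.22 ± 0.032 (SE, limma adjusted p = 1.25e-07). Ndufab1, the mitochondrial acyl carrier protein, ranged over 10.95 to 11.36 with a median of 11.18 at 19 days, against 11.20 to 11.77 with a median of 11.47 at 6 h, with a log2 difference of -0.29 ± 0.048 (SE, limma adjusted p = 2.25e-06). Cox7b ranged over 12.62 to 12.95 with a median of 12.71 at 19 days, against 12.26 to 12.67 with a median of 12.48 at 6 h, with a log2 difference of 0.28 ± 0.035 (SE, limma adjusted p = 5.51e-09).

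Of the complex I genes 7 of 34 were higher at 19 days and 7 lower, and of the core subunits of all complexes 7 of 17 were higher and 1, Ndufs8, lower. With the RNA integrity number in the fit 21 genes were higher and 7 lower at 19 days, and on the same arrays without it 20 and 8. Ndufb2, Ndufs6 and Ndufs8 were among the falls lost with it. Of these, Ndufb2 (-0.083) and Ndufs6 (-0.081) were also lost on the same arrays without it, and Ndufs8 was not. Of the genes called at 19 days, 5 have a second probe set. Uqcrc2 was higher on both of its probe sets at 19 days (0.20 and 0.31), whereas Ndufa7 was lower on the bright probe set (-0.15) and higher on the dim one (0.29), so its direction is uncertain. The second probe sets of Atp5po (-0.026), Ndufa9 (0.15) and Atp5me (-0.11) were not called, and with the mean over both Atp5po had 0.063 and was not called.

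**Figure D4:**
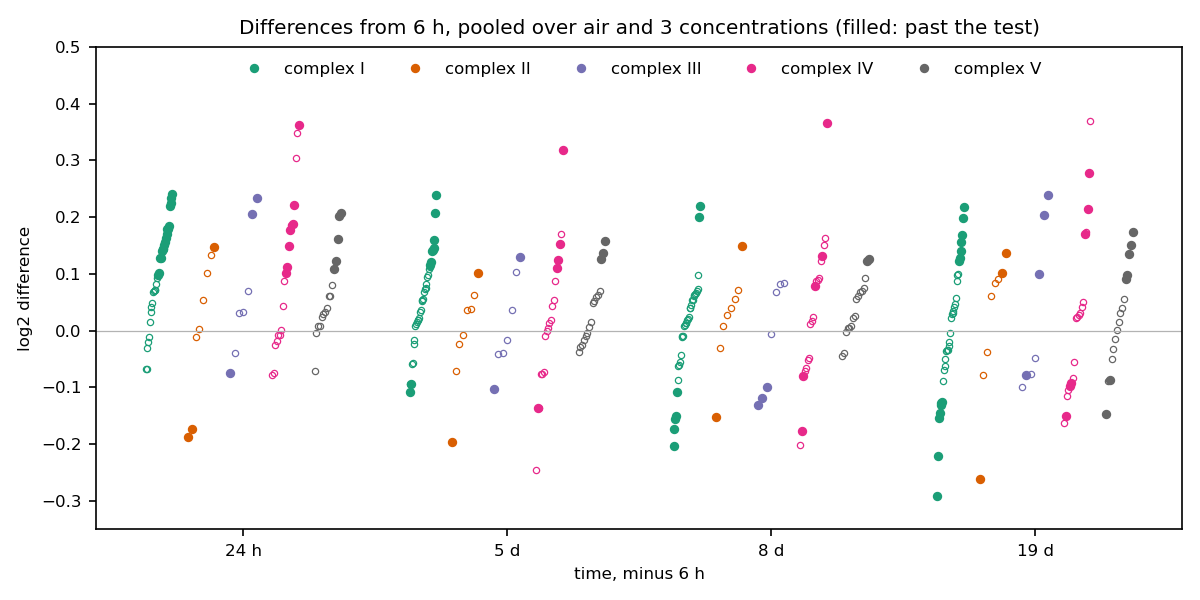
Log2 difference of each gene at 24 h, 5, 8 and 19 days minus 6 h, pooled over air and 3 concentrations, grouped by complex at each time, with filled points for called genes. Complex I has 18 of 34 genes called upward at 24 h and 7 called in each direction at 19 days.

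Air rats alone showed part of this. In an F-test across the 5 times, 14 of the 84 genes were called, or 16.7% against 11.4% of all probe sets: Atp5me, Atp5pf, Atp5po, Cox7b, Cox7c, Ndufa2, Ndufa6, Ndufa7, Ndufa8, Ndufab1, Ndufb7, Ndufs1, Ndufs8 and Uqcrc2. Among these 14, Ndufab1 and Ndufa7 had the widest spread of air means, 0.42 each. Over all 84 genes the widest was that of Cox6a2 (0.97), which was not called. The count was 9 without the 19-day animal 77.

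The 2 sets of air rats at 6 h also differed. In the second set 18 of the 84 genes were lower than in the first and 0 higher, or 21.4% against 4.7% of all probe sets, 2.49% upward and 2.21% downward. The median difference was -0.17 against 0.00037 over all genes, and 45 genes lay wholly below, against 7.44% of all probe sets. The genes were Uqcrq, Uqcrh, Uqcr11 and Uqcrc1 of complex III, 9 of complex I (Ndufa2, Ndufa6, Ndufa12, Ndufb5, Ndufb6, Ndufb10, Ndufs3, Ndufs7 and Ndufv1), Sdhaf1, Cox6b1, Cox7a2l, Atp5f1d and Atp5po. Uqcrq had 10.92, 10.95, 11.02 and 11.05 in the second set, against 11.28, 11.36, 11.43 and 11.48 in the first, with a log2 difference of -0.40 ± 0.08 (SE, limma adjusted p = 0.000584).

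RNA integrity was 7.3 to 7.8 in the second set, against 7.8 to 8.3 in the first, and with that number in the fit 16 genes were called, 14 of them among the 18. Of 73 mitochondrial ribosomal genes 10 were lower, and of 50 cytosolic ones 9, with 0 higher in either. Without second-set animal 325 the count was 9, and without first-set animal 50 it was 10. Of the 5 genes that rose at 15 ppm, Ndufb5 was among the 18, which are 21.4% of the 84. Both comparisons use the same second-set air rats, so they are not independent. Of the 11 that rose after instillation, against water rats, Ndufa2, Ndufa6, Ndufa12, Ndufb5, Ndufv1 and Cox7a2l were among the 18.

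Several subunits of complex IV exist as tissue-restricted isoforms beside a widely expressed partner. Cox6a1 averaged 11.64 and Cox6a2, the heart and skeletal muscle form, 4.62 with an SD of 0.43 over the 98 arrays. At 5 days Cox6a2 had 4.23, 4.34, 4.45 and 4.67 in 0.7 ppm rats, 4.31, 4.36, 4.47, 4.76 and 4.82 in 2 ppm rats and 4.36, 4.40, 4.58 and 4.74 in 6 ppm rats, against 4.14, 4.84, 6.38 and 6.63 in air rats. Of the air rats, 2 stood far above all others of that time. The log2 difference was -1.07 at 0.7 ppm, -0.95 at 2 ppm and -0.97 at 6 ppm, none called with all animals, and all 3 were called without air animal 63, the lowest of the 4.

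Over the 98 arrays, after group means were subtracted, Cox6a2 correlated at 0.84 with the mean of 10 skeletal muscle markers such as Ckm and Acta1, and at 0.82 without the 2 animals farthest from the median marker level. The same 2 air rats had muscle marker means of 8.31 and 8.41, against 6.85 and 5.22 in the other air rats at 5 days. The highest of all, 8.49, was in 6 ppm animal 286 at 6 h, where Cox6a2 was 6.95.

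**Figure D5:**
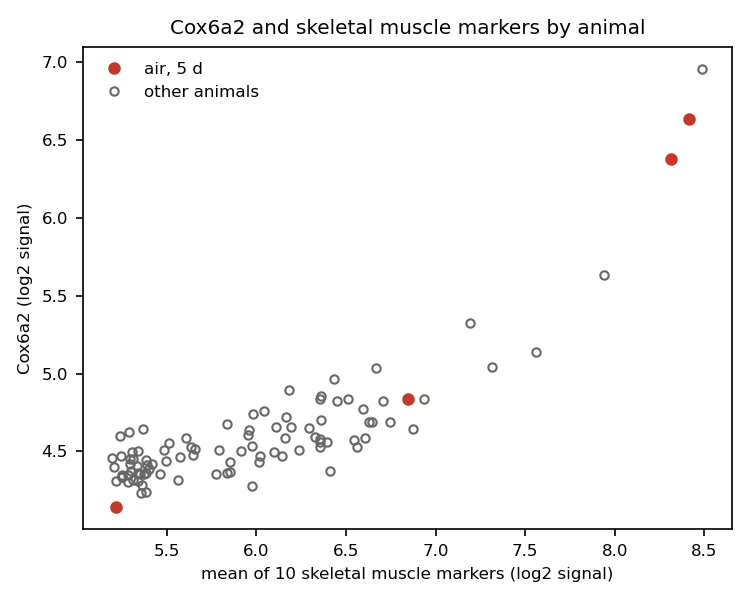
Log2 signal of Cox6a2 against the mean log2 signal of 10 skeletal muscle markers, with 1 point for each of 98 animals and the air rats at 5 days filled. The points rise together, and 2 of the 4 air rats at 5 days lie among the 3 animals with the highest marker means.

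For Ndufa4l2, Cox8b, Cox4i2 and Cox7a1 the highest of the correlations with the 11 marker lists is given below. The lowest were -0.46 for Ndufa4l2 with tuft cell and ionocyte markers and -0.42 for Cox8b with secretory markers. They were -0.42 for Cox4i2 with ciliated markers and -0.38 for Cox7a1 with olfactory markers. Ndufa4l2, a relative of the complex IV subunit Ndufa4 that is induced by low oxygen in human and mouse cells, correlated at 0.67 with basal and squamous markers, Cox8b, a muscle form in rodents, at 0.50 with olfactory markers, and Cox4i2, a lung form also induced by low oxygen, at 0.46 with markers of stroma and vessels. Cox7a1, the heart and muscle partner of Cox7a2, reached 0.49 with basal and squamous markers but 0.19 with muscle. Cox6b2 and Cox7b2, testis forms, had no correlation above 0.30 in size with any list. Cox4i2 was higher at 24 h (0.36) and 5 days (0.32), when 3 of 5 stroma and vessel markers were also higher. These correlations are over 98 arrays that share tissue, array sets and RNA quality, and no p is given.

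Of the widely expressed partners, Cox4i1, Cox6a1, Cox6b1, Cox7b, Cox8a and Ndufa4 averaged above 11. All 6 were called in at least 1 comparison of times, and only Cox7b was called in a comparison of exposed with control rats, after instillation. Cox8c is not analysed here. Cox7a2 was read only from a probe set shared with Cox7a2l2, which is described with the results for a closer look.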

How the data were processed

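RNA of 98 rats was hybridized to 98 Rat230_2 arrays, 1 per rat. The deposited values are log2 signals, 31099 probe sets per array, with array medians of 5.93 to 6.07. The summary and normalization behind them are not given in the sources used here. Control probe sets (57) were left out. Of the other 31042 probe sets, 20826 carry 1 gene symbol in the platform annotation, 436 several and 9780 none.

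limma 3.58.1 in R 4.3.3 was fitted to all 98 arrays with 24 group means, and each comparison's p-values got a Benjamini-Hochberg adjustment across 31042 probe sets. A gene was called at an adjusted p under 0.05. The p-values set each difference against the spread between rats of a group, pooled over the 24 groups. Days of collection and array handling are not labelled, so the spread between them was not estimated. The script was tested on simulated data. The genes and lists were chosen with earlier results of these data known, and the mitochondrially encoded list after seeing the annotation. Named genes were all those called, or the 12 largest rises and falls where over 24 were called, the isoforms with their partners, and up to 4 called genes per other list. Alternatives were cyclic loess, a trended robust prior, a filter on dim probe sets, the mean over probe sets, 1 array set alone, RNA integrity, other controls and leaving out each rat. The number of arrays limits the precision.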

Additional observations from a re-analysis of the deposited data

Results flagged for a closer look

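Over the mean of the 84 genes in each group and the genes called at 15 ppm, after instillation and at 6 ppm in their own groups, 92 sets of 4 or 5 animals were tested, and 7 held an animal far from the others by Dixon's criterion, and chance gives about 1 in 20 such sets. Atp5if1 was 11.09 in 15 ppm animal 341, with the next at 11.22. Ndufa6 was 10.64 in formaldehyde-instilled animal 374, with the next at 10.81. Ndufs3 was 10.38 in the 6 ppm 8-day animal 299, with the next at 10.11. Ndufs7 was 9.95 in the 6 ppm 6 h animal 286, with the next at 10.49, and 10.83 in the 6 ppm 24 h animal 290, with the next at 10.68. Sdhaf2 was 8.60 in the 6 ppm 19-day animal 312, with the next at 8.83, and 8.76 in the 19-day air animal 76, with the next at 8.99.

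A probe set shared by Cox7a2l2 and Cox7a2 was not among the 84 genes, since it cannot be given to 1 of them. Its log2 difference was 0.25 at 15 ppm against air (limma adjusted p = 0.00304) and 0.29 after instillation against water (limma adjusted p = 0.000194).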

How the results depend on the processing

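No paired analysis was possible because the numbers are those of single rats with 1 array each. At 15 ppm the count of called genes was 2 when only that array set was fitted. Against the air animals of the first set it was 20, with a median difference of -0.087 and 4763 of 31042 probe sets called. There exposure and array set cannot be told apart. Under the last, Ndufb5 had -0.040. For instillation the count was 6 when only that set was fitted and 33, with a median of 0.147, against air in place of water. Of all 31042 probe sets 9331 were called against air. With the RNA integrity number in the fit, 0 genes were called at 6 ppm pooled over times, 1 (Cox6a2, -1.01) at 2 ppm for 5 days and 13 at 5 days against 6 h. On the arrays with that number but without it in the fit, an alternative chosen after seeing the data, 0 and 1 were called in the first 2 of these. With the mean over probe sets, 1 gene (Ndufa11) was called for the 15 ppm effect minus the 6 ppm effect, and Ndufa7 at 19 days had 0.071. Leaving out 1 animal at a time gave 2 to 6 called genes at 15 ppm, 9 to 16 after instillation, 2 to 6 at 6 ppm pooled, 9 to 17 between the air sets and 9 to 18 across times in air. It gave 0 to 1 at 5 days for each of 0.7, 2 and 6 ppm, for the instillation effect minus the 15 ppm effect and for the 15 ppm effect minus the 6 ppm effect. Of 151 results for single called genes, 138 stayed on the same side of the threshold under cyclic loess, 150 under a trended robust prior, 151 under the filter on dim probe sets and 144 under the mean over probe sets, where 1 reversed. With the RNA integrity number in the fit 114 of 151 did and 37 lost their call, on the arrays with that number 127 did, and on 1 array set alone 117 of 133 did. The cause of these changes was not tested.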
